A study of Mus musculus with 15 samples.

Results

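Colon taken on day 48 of a mouse model of colitis-associated colorectal cancer was compared with colon taken on day 27, in saline-injected mice only. The comparison rests on 6 of the 15 RNA-seq libraries of the series, 3 labelled saline D48 and 3 labelled saline D27, and all genes of the count table entered it. The mice were male C57BL/6J, 6 to 10 weeks old per the labels' protocols. They were injected with 10 mg/kg azoxymethane (AOM), a colon carcinogen, on day 0. They then drank 2.5% dextran sulfate sodium (DSS), a polymer toxic to colonic epithelium, on days 7 to 11, 28 to 32 and 49 to 53, and were injected with saline as the placebo on those days. By that calendar, day 27 lies after the first DSS period and before the second, and day 48 lies after the second and before the third. The titles call the D48 libraries cycle 1 and give the D27 libraries no cycle, so the number of DSS periods behind each group is taken here from the day and the protocol and not from the titles. Nothing in the labels ties each library to an animal of its own, and the p-values therefore rest on library-to-library spread, which may be technical.

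Levels in 2 other groups are given as context: saline D100, from mice on the same schedule, and Control, labelled as wild type, for which the shared protocol nevertheless says that every mouse received AOM. The 3 libraries of mice given 25 mg/kg APX3330 took part only in estimating each gene's spread.

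In this model each DSS period strips and ulcerates the colonic epithelium, and neutrophils, macrophages and activated fibroblasts gather beneath it. Wound repair then needs matrix-degrading enzymes, new collagen and restored surface, mucus-secreting and chemosensory epithelial cells. Serum amyloid A and lipocalin-2 mark acute inflammation in this tissue, while mucosal pentraxin and resistin-like molecules are products of the renewed epithelium and of the mucosal response to microbes and parasites.

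Total counts ranged from 14787313 to 17919613 in the 6 libraries. Levels are in CPM, a count divided by the effective library size, and 18038 of 56859 genes had enough counts to test. All libraries held colon markers, with Hoxd13 between 79 and 108 CPM and the small-intestinal gene Apoa4 at 0. The 45 exocrine pancreas genes of the count table summed to 777, 569 and 663 CPM in the D27 libraries. In D48 replicates 1, 2 and 3 they summed to 681, 63928 and 16044 CPM. D48 replicate 2 also held insulin (Ins2) at 9.6 CPM and the keratins Krt5, Krt13 and Krt14 of stratified epithelium at 24.9, 31.4 and 37.1 CPM, against at most 3.11 CPM for any of these 3 keratins in the other 5 libraries. D48 replicate 3 held the most B cell transcripts, with the genes of that list summing to 1839 CPM against 518 to 1142 CPM in the others.

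**Figure D1:**
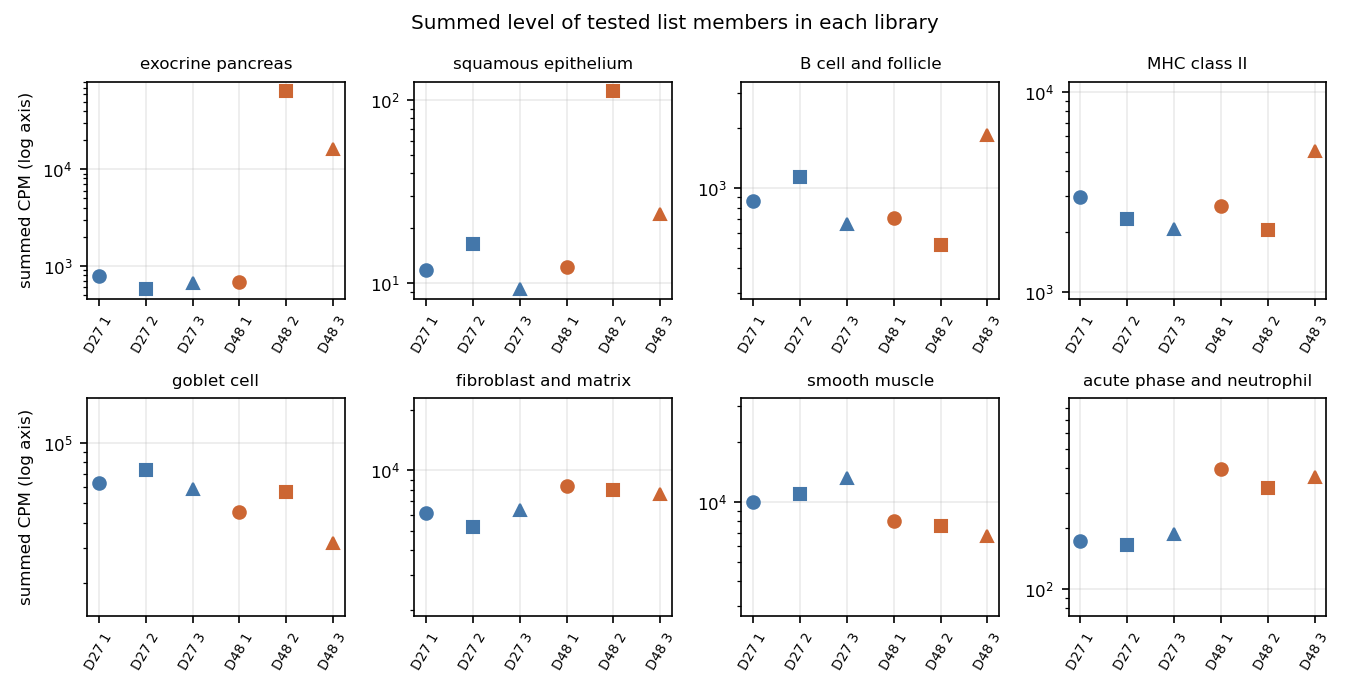
Each panel gives the summed CPM (log axis) of one gene list in the 3 saline D27 and 3 saline D48 libraries. The sums take in all members found in the count table, not only the tested members named in the title. Exocrine pancreas genes reach 63928 and 16044 CPM in D48 replicates 2 and 3 only, B cell genes are highest in D48 replicate 3, and the acute phase, fibroblast and smooth muscle sums separate the groups in all 6 libraries.

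The comparison called 154 genes higher (0.854% of those tested) and 90 lower (0.499%) on day 48, by edgeR's quasi-likelihood test with Benjamini-Hochberg adjustment at 0.05. Of the 154, 18 were on the exocrine pancreas list, such as Ctrb1 (chymotrypsinogen), at 9176 and 2055 CPM in D48 replicates 2 and 3 and at 2.12 CPM or less elsewhere. A further 3 (Itih4, Erp27 and Ggt1) were likewise carried by those libraries. In each of the other 133 rises, D48 replicate 1, the library without pancreas transcripts, lay above every D27 library. Their median change was 0.71 on the log2 scale, and 41 of them reached 1. Of the 90 falls, 89 had no overlap between the groups, the median was -0.89, and 35 reached -1. Over all 18038 genes tested, 10.3% lay wholly above day 27 and 9.77% wholly below. At an unadjusted p below 0.05, 1328 genes were higher and 1235 lower, and DESeq2's test called 402 higher and 311 lower. The counts of list members below are to be read against these shares.

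These counts depended on single libraries. They were 95 higher and 40 lower without D27 replicate 1, 19 and 5 without D27 replicate 2, and 33 and 9 without D27 replicate 3. They were 156 and 91, 94 and 74, and 59 and 9 without D48 replicates 1, 2 and 3 in turn. Without both pancreas-bearing libraries, which leaves D48 replicate 1 alone and assumes that it varies like the other groups, 12 genes were higher (0.0606% of 19814) and 12 lower (0.0606%). All 133 other rises and all 90 falls kept their direction in each of these fits. For the 133 rises and for 89 of the falls this was fixed beforehand. Their groups do not overlap, so leaving libraries out could not reverse them.

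**Figure D2:**
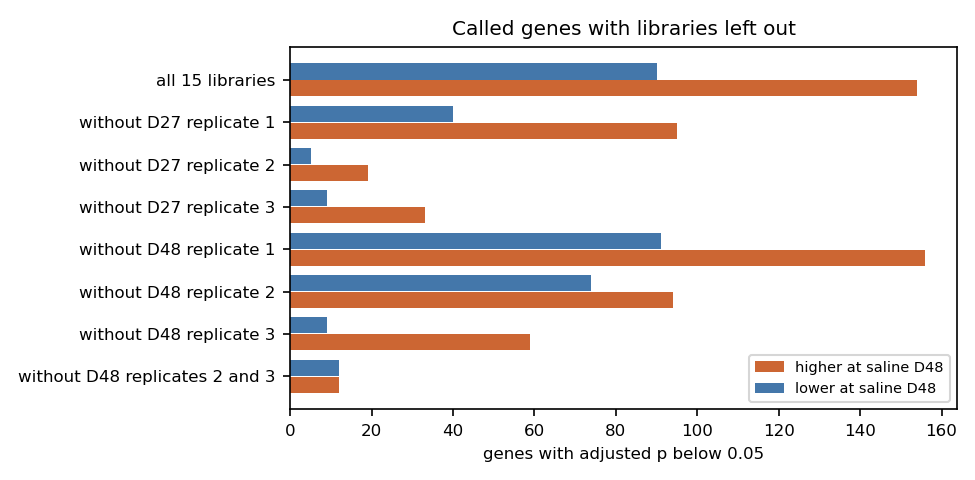
Bars give the number of genes with an adjusted p below 0.05, higher (orange) or lower (blue) on day 48, in the fit of all 15 libraries and with libraries of the 2 groups left out. The counts fall from 154 and 90 to 19 and 5 without D27 replicate 2, and stay at 156 and 91 without D48 replicate 1.

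Genes of tissue remodelling and acute inflammation led the rises. Among matrix metalloproteinases, which cut the extracellular matrix, their inhibitors and related proteases, 4 of 14 tested genes rose (Mmp3, Mmp10, Mmp2 and Mmp9) and none fell. Of all genes, 0.854% rose and 0.499% fell. The median of the list was 1.06 on the log2 scale, against 0.0 for all genes, and 11 of the 14 lay wholly above day 27, as 10.3% of all genes did. Mmp3 (stromelysin-1) and Mmp10 (stromelysin-2) are neighbours on chromosome 9, and had the largest fold changes of the called members. Their promoters are shown because both genes lead the list and moved together. They run from 250 bases before to 50 after the annotated start (RefSeq, GRCm38.p6), at chr9:7445572-7445871 for Mmp3 and chr9:7502092-7502391 for Mmp10, both on the plus strand. Capitals mark matches to TGANTCA, the letters bound by AP-1 factors, and to TATAAA.
Mmp3: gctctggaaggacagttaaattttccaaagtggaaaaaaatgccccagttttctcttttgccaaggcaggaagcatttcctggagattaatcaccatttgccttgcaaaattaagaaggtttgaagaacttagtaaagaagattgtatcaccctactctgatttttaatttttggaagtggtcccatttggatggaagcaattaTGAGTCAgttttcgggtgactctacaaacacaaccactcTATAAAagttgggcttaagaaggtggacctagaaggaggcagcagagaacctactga
Mmp10: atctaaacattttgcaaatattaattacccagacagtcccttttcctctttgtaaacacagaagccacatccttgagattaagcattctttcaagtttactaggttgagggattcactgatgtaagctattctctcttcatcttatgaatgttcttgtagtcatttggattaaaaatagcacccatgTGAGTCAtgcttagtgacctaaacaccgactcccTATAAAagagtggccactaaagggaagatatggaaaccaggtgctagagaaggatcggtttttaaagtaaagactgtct
In both windows the AP-1 letters stand upstream of TATAAA. Counted from the start, they begin at position -46 in Mmp3 and -63 in Mmp10, and TATAAA begins at -7 and -29. Of 32851 RefSeq promoters of this length, 7.81% hold the AP-1 letters on either strand and 13.6% hold TATAAA. Matches to CCAAT (37.4% of promoters), the STAT site letters (8.3%), GGGCGG (35.7%) and the interferon stimulated response element (3.44%) were also searched and are in neither window. A match is a description of the letters and not of binding.

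Mmp3 (chromosome 9, 7445822 to 7455975) stood at 3.85, 3.86 and 4.47 CPM in the D27 libraries and at 18.9, 14.2 and 28.8 CPM in the D48 libraries. The lowest D48 library was above the highest D27 library by several times the spread within day 27. The change was 2.35 ± 0.326 on the log2 scale (SE), with an edgeR adjusted p of 0.00397, and the call held with each library left out. Mmp10 (chromosome 9, 7502352 to 7510240) went from 2.56, 0.757 and 1.24 CPM to 10.9, 13 and 14.9 CPM, again with no overlap. Its change was 3.06 ± 0.513 (edgeR adjusted p = 0.0103), which rose to 0.0672 without D27 replicate 2 and to 0.0749 without D27 replicate 3.

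Mmp2, gelatinase A of mesenchymal cells, was more abundant and more even. It stood at 54.4, 47.2 and 39.4 CPM on day 27 and at 91.2, 105 and 86.5 CPM on day 48. The groups did not overlap, and the log2 change was 1.00 ± 0.119 (edgeR adjusted p = 0.00199, called with each library left out). Mmp9, gelatinase B of neutrophils and macrophages, stood at 1.62, 3.31 and 5.02 CPM on day 27 and at 9.39, 11.5 and 10.2 CPM on day 48. Its log2 change of 1.64 ± 0.346 had an edgeR adjusted p of 0.0314, which was 0.0764 without D27 replicate 1, 0.11 without D27 replicate 2, and 0.0725 and 0.088 without D48 replicates 2 and 3. Mmp7 (matrilysin) had the largest estimate of the list, 3.98, but did not pass (adjusted p = 0.0568). It stood at 1.46, 23.5 and 9.35 CPM on day 48, high only in the pancreas-bearing libraries.

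Collagen and other matrix genes of fibroblasts rose by smaller and more uniform amounts. Of 23 tested, 8 rose (Col1a1, Col1a2, Col3a1, Col5a1, Col5a2, Col15a1, Vim and Bgn) and none fell, against 0.854% and 0.499% of all genes. The list median was 0.42, and 15 members lay wholly above day 27, as 10.3% of all genes did. Col1a1 (a chain of type I collagen; chromosome 11, 94936224 to 94953042) stood at 394, 361 and 376 CPM on day 27 and at 679, 632 and 581 CPM on day 48. The D27 libraries differed little among themselves and none reached the D48 range, and D48 replicate 1 was the highest. It rose by 0.74 ± 0.107 in log2 (edgeR adjusted p = 0.00451). Col1a2, the partner chain, moved from 489, 434 and 458 CPM to 777, 741 and 666 CPM (0.66 ± 0.0983, edgeR adjusted p = 0.0057). The calls of Col1a1 and Col1a2 held with each library left out and with D48 replicate 1 alone (edgeR adjusted p = 0.0306 and 0.0354). Col3a1, which forms fibrils with type I collagen in healing tissue, stood at 1108, 888 and 1034 CPM and then at 1663, 1575 and 1348 CPM. Its change of 0.60 ± 0.118 (edgeR adjusted p = 0.0219) lost its call without D27 replicate 2 (0.101), D27 replicate 3 (0.0889), D48 replicate 1 (0.0642) or D48 replicate 2 (0.0525). Biglycan (Bgn), a small proteoglycan, rose from 215 ± 23.8 to 351 ± 20.6 CPM (mean ± SD, n = 3). Its edgeR adjusted p was 0.00723, and 0.0565 without D27 replicate 2. Over the list, the number of called members was 2 without D27 replicate 2, 3 without D27 replicate 3, and 4 to 6 without each of the other libraries.

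Postn, Fap and Fn1, genes of activated fibroblasts, had estimates of 0.06, -0.03 and 0.17 and were not called. Other stromal genes of the list, Grem1, Thy1, Sparc and Pdgfrb, had estimates of 0.67, 0.45, 0.42 and 0.36, also without passing. Of the 23 tested members, 22 had estimates above 0. No contrast between collagens and fibroblast markers is drawn from Postn, Fap and Fn1. Cemip, a hyaluronan-binding protein that takes part in hyaluronan breakdown, was one of the most even rises. It stood at 2.62, 2.07 and 2.05 CPM on day 27 and at 13.6, 10.7 and 13.1 CPM on day 48. The D48 libraries, with and without pancreas transcripts, lay close together. The log2 change of 2.46 ± 0.312 (edgeR adjusted p = 0.00206) stayed called with each library left out and with D48 replicate 1 alone (adjusted p = 0.0306).

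Acute phase and neutrophil genes had the largest list median apart from the pancreas genes, 1.97 on the log2 scale. Of 21 tested, 6 rose (Saa3, Lcn2, Il1b, Csf3r, Mmp9 and Clec4d) and none fell, against 0.854% and 0.499% of all genes. Of the 21, 18 lay wholly above day 27, as 10.3% of all genes did. Saa3 (serum amyloid A3, an acute phase protein made locally in inflamed tissue; chromosome 7, 46711998 to 46715700) had the largest rise among the genes named by rule. Saa3 stood at 0.836, 0.826 and 1.61 CPM on day 27, or 53 counts in all, and at 16.9, 15.7 and 28.2 CPM on day 48, or 978 counts. No D48 library came near the D27 range, and the replicate without pancreas transcripts lay between the other two. The fold was 18.5 (log2 4.21 ± 0.472, edgeR adjusted p = 0.00153), called with each library left out and with D48 replicate 1 alone (3.95, adjusted p = 0.0238). Krt90, named here after its values were seen, had a larger estimate (4.91) at a low level, 0.112 CPM or less on day 27 and 1.06, 4.26 and 2.79 CPM on day 48.

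Interleukin-1 beta (Il1b), the cytokine released through inflammasomes, stood at 7.08, 3.31 and 8.81 CPM on day 27 and at 46, 10.9 and 18.1 CPM on day 48. The groups did not overlap, and D48 replicate 1 was far above the rest. The log2 change was 1.96 ± 0.448 (edgeR adjusted p = 0.0412). The adjusted p was above the threshold without 5 of the 6 libraries (0.103, 0.155 and 0.0927 without D27 replicates 1, 2 and 3, and 0.175 and 0.0737 without D48 replicates 1 and 3). Nlrp3, which encodes the sensor of that inflammasome, rose from 1.2 ± 0.218 to 4.72 ± 1.43 CPM (edgeR adjusted p = 0.0405, up to 0.155 with a library left out, and called in none of the 6 omissions).

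Lipocalin-2 (Lcn2), which binds bacterial siderophores, rose from 3.85, 4.48 and 5.33 CPM to 11, 19 and 17.3 CPM. Every D48 library lay above every D27 library by more than the spread of day 27. Its log2 change was 1.79 ± 0.352 (edgeR adjusted p = 0.0217). The call was kept only without D48 replicate 1 and reached at most 0.0895 otherwise. Csf3r, the receptor for the neutrophil growth factor G-CSF, stood at 6.19, 4.96 and 10.6 CPM and then at 27.1, 18.1 and 24.2 CPM (edgeR adjusted p = 0.0143). Its adjusted p was 0.0575, 0.0805 and 0.0524 without D27 replicate 1, D27 replicate 2 and D48 replicate 3. The calprotectin genes S100a8 and S100a9 had log2 estimates of 3.2 and 2.9, and the chemokine genes Cxcl5 and Cxcl2 of 2.97 and 2.68, without passing the test. The neutrophil surface gene Ly6g, at -0.10, was the only 1 of the 21 tested members with an estimate below 0, and was not called. The receptor genes Cxcr2 and Trem1 of the same list had estimates of 2.15 and 3.19, also without passing. In bulk tissue, more cells of a type and more RNA per cell cannot be told apart. With libraries left out, between 1 and 4 members of the list were called.

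Other large rises were in genes of several roles. Slpi, the secretory leukocyte protease inhibitor, stood at 8.75, 10.9 and 17.4 CPM on day 27 and at 35.3, 33.8 and 108 CPM on day 48, highest in D48 replicate 3. Its edgeR adjusted p was 0.0171, and between 0.0549 and 0.0895 without any 1 of the D27 libraries or D48 replicate 3. Wfdc18, another protein with the whey acidic protein domain found in Slpi, stood at 6.67 ± 1.37 CPM and then at 28.1 ± 10.7 CPM. Its rise of 2.07 ± 0.258 in log2 (edgeR adjusted p = 0.00199) was called with each library left out. Haptoglobin (Hp), the haemoglobin-binding acute phase protein, stood at 6.58, 5.44 and 4.16 CPM and then at 24.1, 22.5 and 28.6 CPM. Its edgeR adjusted p was 0.0473, and Hp was called in none of the 6 omissions (up to 0.209). Dmbt1, an abundant scavenger receptor secreted by the epithelium that binds bacteria, rose from 2603, 1946 and 3011 CPM to 5433, 7468 and 4560 CPM. This was the largest rise in absolute level among the genes named here outside the pancreas list, with a log2 change of 1.21 ± 0.209 (edgeR adjusted p = 0.0127, and 0.0734 without D27 replicate 2). Slc4a11, Aldh1a3, Depp1 and Khdc1a were also among the 15 largest rises, with log2 changes of 2.01, 1.81, 1.78 and 2.03. Each was called in 1 of the 6 omissions, the one of D48 replicate 1.

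**Figure D3:**
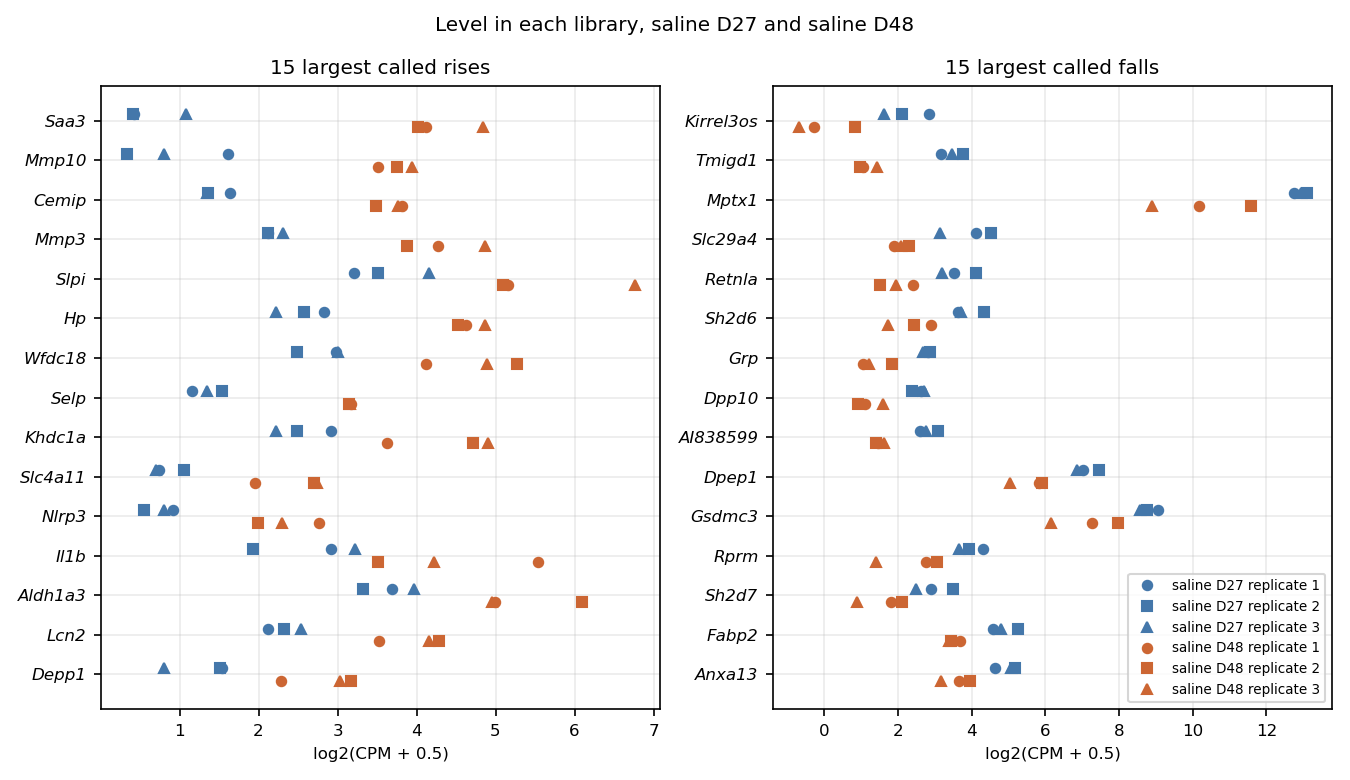
Level, as log2(CPM + 0.5), of the 15 largest called rises (left) and falls (right) in each library, with blue for saline D27, orange for saline D48 and a marker shape for each replicate. The groups do not overlap for any gene shown, which the choice of genes required, and Selp, Cemip and Hp show D48 libraries close together while Il1b, Slpi and Mptx1 show them spread out.

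Vessel and myeloid genes had higher estimates on day 48, and a few of them rose. All 17 tested endothelial genes had estimates above 0 (median 0.54), 12 of them wholly above day 27 (10.3% of all genes). Of the 17, 3 rose (0.854% of all genes): Selp, Vcam1 and Cdh5. P-selectin (Selp), the adhesion molecule on which leukocytes roll along activated endothelium, stood at 1.73, 2.41 and 2.05 CPM on day 27 and at 8.53, 8.33 and 8.42 CPM on day 48. The 3 D48 values agreed within a small part of their distance from day 27. The log2 change was 2.03 ± 0.32 (edgeR adjusted p = 0.0083), called with each library left out. VE-cadherin (Cdh5), a junction protein of endothelial cells, went from 27.9 ± 1.24 to 41.4 ± 4.03 CPM (edgeR adjusted p = 0.0325). Vcam1, which binds leukocyte integrins, went from 28.2 ± 2.29 to 46 ± 13.4 CPM (edgeR adjusted p = 0.0453), with D48 replicate 3 the highest. Cdh5 was called only without D48 replicate 1 (up to 0.127 otherwise), and Vcam1 lost its call without any 1 of the D27 libraries or D48 replicate 3 (0.0821 to 0.188).

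All 22 tested macrophage and dendritic cell genes had estimates above 0, with a median of 0.60. Of these, 13 lay wholly above day 27 (10.3% of all genes), but 2 were called higher (0.854% of all genes). Cd14, the co-receptor for bacterial lipopolysaccharide, stood at 60.2, 64.7 and 59.7 CPM on day 27 and at 98, 109 and 95.1 CPM on day 48. Fcgr3, a receptor for IgG, stood at 21.4, 15.6 and 17.9 CPM and then at 30.3, 30.1 and 29.5 CPM. Neither pair of groups overlapped, and both genes had a log2 change of 0.71 (edgeR adjusted p = 0.0367 for Cd14 and 0.042 for Fcgr3). With libraries left out, Cd14 was called in none of the 6 fits (up to 0.146) and Fcgr3 only without D27 replicate 1 (up to 0.161). Monocyte-macrophage genes such as Csf1r, Adgre1 and Cd68 had estimates of 0.58, 0.53 and 0.62 and did not pass.

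None of the 22 T cell, 11 cytotoxic lymphocyte, 24 B cell or 11 MHC class II genes tested was called, by edgeR, with medians of 0.43, 0.39, 0.36 and 0.27. At an unadjusted p below 0.05, 3 T cell genes and 1 MHC class II gene were higher, and no cytotoxic gene passed. At the same threshold 1 B cell gene was lower, Rgs13 (log2 estimate -1.46), which is also on the tuft cell list. Over all 18038 genes, 1328 were higher and 1235 lower at that threshold. DESeq2 called 1 B cell gene lower (311 of all genes) and none of the others. D48 replicate 3 stood apart from the other D48 libraries. Summed B cell genes came to 862, 1142 and 661 CPM on day 27 and to 707, 518 and 1839 CPM on day 48, so the D48 libraries lay on both sides of the D27 range. Foxp3, the regulatory T cell factor, stood at 0.781, 1.31 and 0.496 CPM on day 27 and at 2.25, 2.27 and 4.18 CPM on day 48, without overlap but at low counts (adjusted p = 0.231). Among plasma cell genes, 1 of 20 rose (0.854% of all genes did). It was Derl3, a factor of endoplasmic reticulum-associated degradation in secretory cells. Derl3 went from 13.3 ± 4.04 to 26.9 ± 4.12 CPM (edgeR adjusted p = 0.0326, up to 0.126 with a library left out, and called only without D48 replicate 1). D48 replicate 1 was the lowest D48 library for Derl3, at 22.2 CPM against 8.99 to 17 CPM on day 27. The part of the pancreas transcripts in its rise was not tested.

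Products of the epithelium were among the largest falls. Mptx1 (mucosal pentraxin 1, a secreted lectin-like protein of the intestinal epithelium; chromosome 1, 174330518 to 174332873) had the highest mean level on day 27 of the genes called. It stood at 6822, 8716 and 7837 CPM on day 27 and at 1158, 3068 and 479 CPM on day 48. The highest D48 library was below the lowest D27 library, and D48 replicate 2 kept the most. The log2 change was -2.31 ± 0.472 (edgeR adjusted p = 0.0261). The adjusted p was 0.0506, 0.0883 and 0.0927 without D27 replicates 1, 2 and 3, and 0.0748 without D48 replicate 1, while D48 replicate 1 alone gave -2.75 (0.0219).

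Secreted antimicrobial and lectin genes lay on both sides. Of 20 tested, 2 rose (Lcn2 and Dmbt1) and none fell, against 0.854% and 0.499% of all genes, and 12 had estimates above 0 (median 0.51). Wholly above day 27 lay 9, and wholly below it 4, against 10.3% and 9.77% of all genes. Reg3b and Reg3g, bactericidal lectins, had the estimates 5.62 and 2.46 without passing (adjusted p = 0.0831 and 0.187). Reg3b stood at 0.112, 1.65 and 1.43 CPM on day 27 and at 2.78, 127 and 24.3 CPM on day 48. The D48 libraries thus had the same order as for the pancreas transcripts. The part of the pancreas transcripts in the Reg3b estimate was not tested. Ang4, Retnlb and Reg4 of this list and the goblet cell gene Clca1 had all D48 libraries below all D27 libraries, also without passing. Ang4, an antimicrobial ribonuclease, stood at 1763, 2361 and 1871 CPM on day 27 and at 129, 883 and 84.5 CPM on day 48 (log2 -2.45 ± 0.662, edgeR adjusted p = 0.0831). Retnlb, a resistin-like protein of goblet cells, stood at 760, 1468 and 1005 CPM and then at 35.2, 347 and 14.1 CPM (-3.03 ± 0.82, 0.0837). Reg4, a lectin of the deep crypt secretory cells, stood at 1712, 2258 and 1947 CPM and then at 325, 1044 and 292 CPM (-1.83 ± 0.462, 0.0639). In all 3 genes every D48 library lay below every D27 library, and D48 replicate 2 stood apart from the other D48 libraries. Clca1, among the most abundant transcripts of this tissue, stood at 20529, 22826 and 19712 CPM and then at 8767, 14855 and 5980 CPM (-1.09 ± 0.286, 0.0755).

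Of 20 tested goblet cell genes none was called by edgeR in the full fit. At an unadjusted p below 0.05, 6 were lower (1235 of 18038 genes were), and DESeq2 called 4 lower (311 of 18038). Without D48 replicate 2, edgeR also called 4 of them lower. With D48 replicate 1 alone, Ang4 (edgeR adjusted p = 0.0238) and Retnlb (0.02) were among 3 called. Muc2, the gel-forming mucin, and Zg16, Tff3 and Spdef had estimates of -0.33, 0.27, 0.26 and -0.18. The median of the list was -0.15, so the large differences lay in a subset of its secreted products.

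Genes of the absorptive surface fell in part. Of 26 tested surface colonocyte genes 2 fell (0.499% of all genes did), none rose, and the median was -0.30. Tmigd1, a cell adhesion molecule of the enterocyte brush border, stood at 8.42, 13.2 and 10.5 CPM on day 27 and at 1.59, 1.47 and 2.21 CPM on day 48. The fall was 6.04-fold in magnitude, the D48 libraries lay within 1 CPM of each other, and the groups were far apart. The log2 change was -2.59 ± 0.412 (edgeR adjusted p = 0.00843, and 0.0565 without D27 replicate 2). Dpep1, a membrane dipeptidase, stood at 130, 174 and 116 CPM and then at 55.8, 59.3 and 32.7 CPM (-1.51 ± 0.243, edgeR adjusted p = 0.0094, and 0.0619 without D27 replicate 2). Slc37a2, a sugar-phosphate exchanger, fell from 218, 85.6 and 167 CPM to 87.4, 56 and 38.9 CPM with overlapping libraries (edgeR adjusted p = 0.0343, and 0.0902 to 0.13 without D27 replicate 1, D27 replicate 3, D48 replicate 2 or D48 replicate 3).

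The intestinal fatty acid-binding protein Fabp2 fell from 23.4, 37.8 and 27.3 CPM to 12.4, 10.4 and 10 CPM. The size was -1.43 ± 0.263 on the log2 scale (edgeR adjusted p = 0.0157, and 0.0805, 0.0593 and 0.0753 without D27 replicate 2, D27 replicate 3 and D48 replicate 3). Fabp2 was the only 1 of 23 fatty acid oxidation and PPAR target genes called (0.499% of all genes fell). Pparg itself, at -0.45, had an adjusted p of 0.051. The water channel Aqp8 and the sodium-hydrogen exchanger Slc9a3 had estimates of -1.22 and -1.59 without passing. The sodium channel subunit Scnn1b stood on the other side, at 7.42 ± 1.01 CPM on day 27 and 13.9 ± 0.185 CPM on day 48 (adjusted p = 0.0726). Among the other large falls, Slc29a4, a monoamine transporter, went from 16.8, 22.7 and 8.37 CPM to 3.24, 4.4 and 3.72 CPM (edgeR adjusted p = 0.0139, and 0.0738 and 0.057 without D27 replicate 2 and D48 replicate 3). Kirrel3os, Grp, Dpp10, AI838599 and Rprm completed the 15 largest falls with log2 changes of -2.94, -1.57, -1.56, -1.51 and -1.50, and were called in at most 1 of the 6 omissions. Anxa13, an annexin of epithelial membranes, fell from 31 ± 6.01 to 11.8 ± 3.2 CPM (edgeR adjusted p = 0.0102, and 0.0624 and 0.0528 without D27 replicates 2 and 3).

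Most tuft cell genes had lower estimates on day 48. Tuft cells are rare chemosensory epithelial cells that release interleukin-25 and eicosanoids. Of 15 tested genes 4 fell (Dclk1, Sh2d6, Sh2d7 and Alox5), against 0.499% of all genes, and none rose. Wholly below day 27 lay 10 of the 15 (9.77% of all genes did), and the median was -0.98. Dclk1, the kinase most used as a tuft cell marker, stood at 26.5, 37.4 and 36.8 CPM on day 27 and at 20.3, 19.5 and 18.1 CPM on day 48. Day 48 was even across libraries, and day 27 replicate 1 came nearest to it. Dclk1 changed by -0.80 ± 0.164 in log2 (edgeR adjusted p = 0.0263). Alox5, which makes leukotriene precursors, stood at 6.58, 9.5 and 7.19 CPM and then at 3.31, 4.06 and 2.09 CPM (edgeR adjusted p = 0.0367). Sh2d6, an adaptor protein of tuft cells, fell from 14.7 ± 4.37 to 4.89 ± 2.08 CPM (edgeR adjusted p = 0.0217). Pou2f3, the factor that specifies the lineage, and the taste transduction genes Gnat3 and Trpm5 had estimates of -1.86, -1.56 and -1.08 without passing. None of the tuft cell genes was called without D27 replicate 2, D27 replicate 3 or D48 replicate 3, where the adjusted p of Dclk1 was 0.11, 0.115 and 0.11. Between 2 and 3 were called without each of the other libraries. Retnla, a resistin-like gene induced by type 2 cytokines, fell from 10.9, 16.8 and 8.68 CPM to 4.83, 2.33 and 3.37 CPM (edgeR adjusted p = 0.0301, called only without D48 replicate 1, and up to 0.125 otherwise). Among 12 eosinophil and type 2 genes edgeR and DESeq2 called none. At an unadjusted p below 0.05, 2 were higher, as were 1328 of all 18038 genes.

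Muscle and nerve genes of the gut wall had lower estimates on day 48. All 16 tested smooth muscle genes had estimates below 0 (median -0.61), and 15 lay wholly below day 27 (9.77% of all genes did). Of the 16, 4 fell (Cnn1, Des, Mylk and Synpo2), against 0.499% of all genes. Desmin (Des), the intermediate filament of muscle, stood at 1210, 1434 and 1626 CPM on day 27 and at 986, 853 and 878 CPM on day 48. The groups did not overlap, although D27 replicate 1 was near the D48 range. Des changed by -0.65 ± 0.125 in log2 (edgeR adjusted p = 0.0183). Calponin (Cnn1), which binds actin, stood at 655, 778 and 863 CPM and then at 518, 458 and 519 CPM (-0.62 ± 0.116, edgeR adjusted p = 0.0164). All 4 calls were lost without D27 replicate 2, D27 replicate 3, D48 replicate 2 or D48 replicate 3 (for Des 0.0757, 0.0927, 0.059 and 0.0783) and 4 members were called without each of the other libraries. Among 18 enteric neuron and glia genes, 17 had estimates below 0 (median -0.64) and 11 lay wholly below day 27 (9.77% of all genes did). Prph (peripherin, a neuronal intermediate filament) was the 1 that fell, against 0.499% of all genes. Prph stood at 16.9, 23.2 and 18 CPM and then at 9.86, 11.5 and 10.7 CPM. The change was -0.86 ± 0.159 (edgeR adjusted p = 0.0157, and 0.0816, 0.0554 and 0.0599 without D27 replicate 2, D27 replicate 3 and D48 replicate 3).

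**Figure D4:**
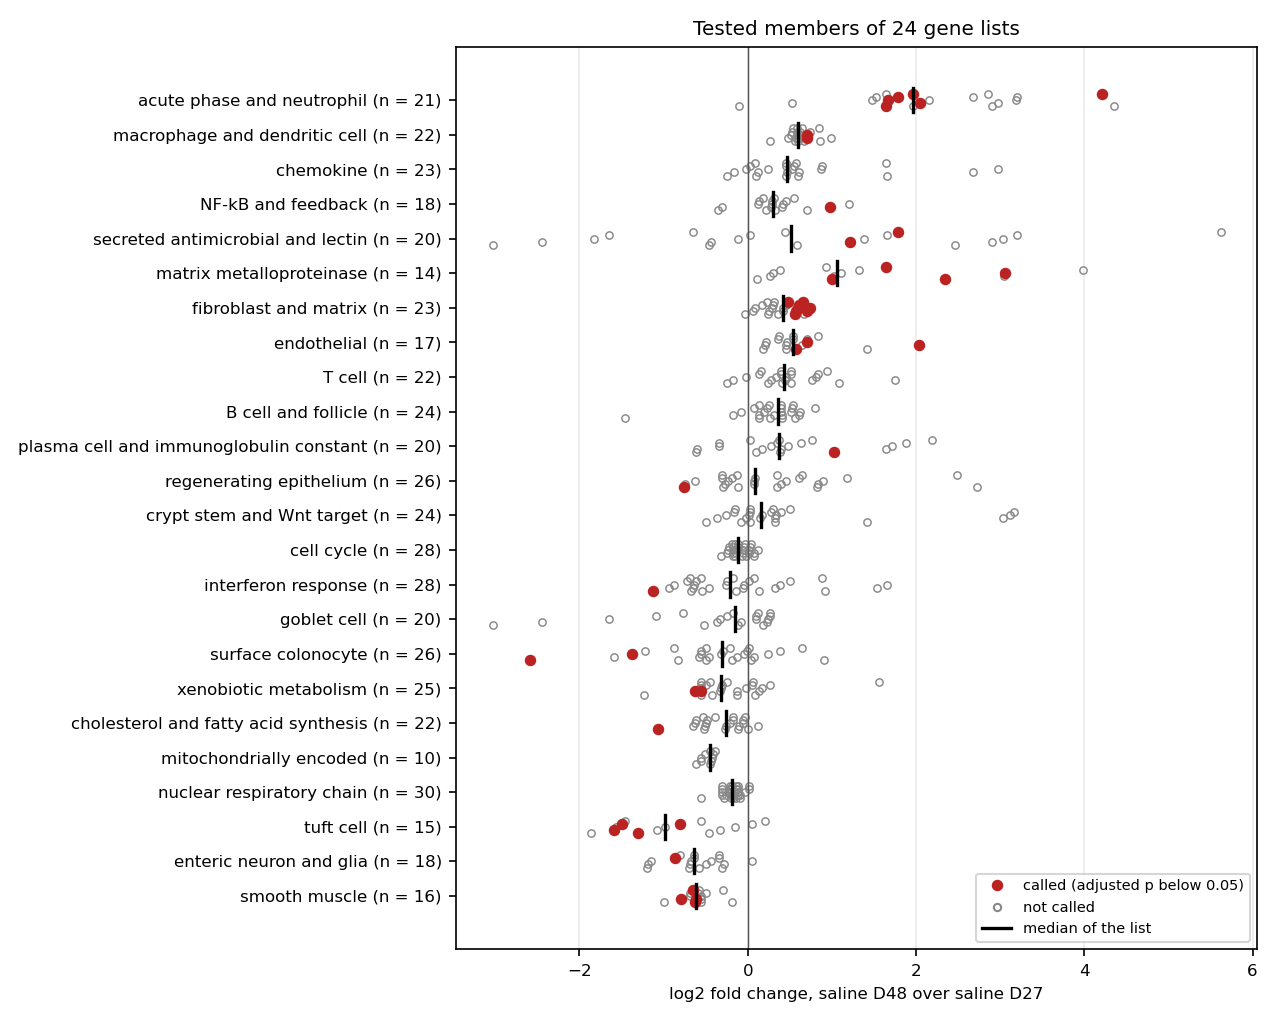
Log2 fold change of each tested member of 24 gene lists (circles, filled red where called), with the median of the list as a black bar and the number tested in brackets. Smooth muscle, tuft cell and mitochondrially encoded genes lie almost wholly to the left of 0, macrophage, endothelial and fibroblast genes to the right, and most members are not called.

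The 10 tested mitochondrially encoded genes all had estimates below 0 (median -0.45) and 7 lay wholly below day 27 (9.77% of all genes did). However, edgeR called none of them. At an unadjusted p below 0.05, 8 were lower (1235 of 18038 genes were), and DESeq2 called 5 lower (311 of 18038). The cytochrome oxidase gene mt-Co1 stood at 13226, 12855 and 19583 CPM on day 27 and at 11127, 9530 and 10380 CPM on day 48 (adjusted p = 0.0576), with D27 replicate 3 far above the others. Of 30 nuclear respiratory chain genes 28 had estimates below 0 (median -0.19). Wholly below day 27 lay 10 of the 30 (9.77% of all genes did). None was called by edgeR or by DESeq2. At an unadjusted p below 0.05, 10 were lower, against 1235 of 18038 genes. Hmgcs1, which condenses acetyl-CoA units on the way to cholesterol, was the 1 of 22 sterol and fatty acid synthesis genes that fell (0.499% of all genes did). Hmgcs1 went from 217, 307 and 275 CPM to 118, 139 and 126 CPM (edgeR adjusted p = 0.0127, and 0.0672, 0.0593 and 0.0507 without D27 replicate 2, D27 replicate 3 and D48 replicate 3). Its pathway partners Fdft1 and Sqle had estimates of -0.65 and -0.63 without passing. Of 25 xenobiotic metabolism genes 2 fell (0.499% of all genes did). They were the glucuronosyltransferase Ugt2b34 (298 ± 19.3 to 204 ± 36.2 CPM, edgeR adjusted p = 0.0271) and the glutathione transferase Gstm1 (190 ± 11 to 123 ± 34.6 CPM, 0.0453). Each was called in 1 of the 6 omissions, the one of D48 replicate 1.

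Of 28 tested interferon response genes, 1 fell (0.499% of all genes did) and none rose, with a median of -0.21. The lower estimates came mainly from D48 replicate 1. Relative to day 27, the mean log2 level of the list was -0.7 in that library, and 0.06 and 0.22 in D48 replicates 2 and 3. In D48 replicate 1, 19 members lay below every D27 library, but 3 lay wholly below day 27 in all D48 libraries (9.77% of all genes did). Rsad2 (viperin), an antiviral enzyme induced by type I interferon, stood at 38.9, 33.1 and 29.3 CPM on day 27 and at 14.4, 17.5 and 14.9 CPM on day 48. The groups were well apart, and the log2 change was -1.12 ± 0.25 (edgeR adjusted p = 0.0382, in none of the 6 omissions below 0.0646). Mx1, Isg15 and Irf7 of the same response had estimates of -0.94, -0.87 and -0.69. Genes better known for induction by interferon gamma, Cxcl9, Ido1 and Gbp5, had estimates of 1.66, 1.54 and 0.92, highest in D48 replicate 3, and none of these 6 genes passed. The circadian gene Per2 rose from 29.4, 26.2 and 34.2 CPM to 69.9, 48.4 and 72.7 CPM (edgeR adjusted p = 0.0433, called only without D48 replicate 2, and 0.103 to 0.159 otherwise). It was the 1 of 18 clock genes called (0.854% of all genes rose), and the time of day of sampling is not in the labels.

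Proliferation and stem cell genes showed no called change. None of the 28 cell cycle genes was called by edgeR (median -0.12, none at an unadjusted p below 0.05, none by DESeq2). None of the 24 crypt stem and Wnt target genes was called either (median 0.16). At an unadjusted p below 0.05, 6 were higher and 1 lower, against 1328 and 1235 of all 18038 genes. DESeq2 called 3 of them higher, against 402 of all genes. Wif1, a secreted Wnt inhibitor that is itself a Wnt target, stood at 3.01, 0.62 and 1.12 CPM on day 27 and at 3.57, 28.7 and 7.26 CPM on day 48 (adjusted p = 0.059). Sp5, another Wnt target, stood at 0.39, 0.413 and 0.124 CPM and then at 0.86, 6.6 and 1.1 CPM (adjusted p = 0.109). Both were highest in D48 replicate 2. Of 26 genes of regenerating epithelium, 1 fell (0.499% of all genes did) and none rose, although 15 had estimates above 0 (median 0.09). At an unadjusted p below 0.05, 8 were higher and 3 lower, against 1328 and 1235 of all 18038 genes. DESeq2 called 5 higher and 2 lower, against 402 and 311 of all genes. Ccn2, a target of the YAP pathway, fell from 35.6 ± 5.17 to 21 ± 2.28 CPM (edgeR adjusted p = 0.0371, called only without D48 replicate 2). Clca4b, at 61.6, 77.1 and 80.6 CPM and then at 338, 577 and 319 CPM, had a log2 estimate of 2.49 without passing (adjusted p = 0.0568). Its near-identical neighbours may share its reads. Apex1, which encodes the target of APX3330, stood at 7.03, 6.2 and 4.34 CPM on day 27 and at 4.23, 8.06 and 5.57 CPM on day 48 (log2 0.02 ± 0.282, adjusted p = 0.983).

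Set beside Control and saline D100, the genes described above took several shapes. Differences from these 2 groups were not tested here, and values are means ± SD of 3 libraries. Saa3 stood at 0.312 ± 0.122 CPM in Control and 1.2 ± 0.343 CPM in saline D100, close to its 1.09 ± 0.451 CPM on day 27 and far from its 20.3 ± 6.89 CPM on day 48. Mmp3, Cemip and Selp had the same shape, with 3.39 ± 1.58, 2.32 ± 0.619 and 2.37 ± 1.2 CPM in saline D100. Col1a1 was at 501 ± 47.9 CPM in Control, between days 27 and 48, and at 287 ± 10.3 CPM in saline D100. Among the falls, Mptx1 stood at 727 ± 37.5 CPM in Control and 9555 ± 1897 CPM in saline D100, so that Control and day 48 lay below days 27 and 100. Tmigd1 (2.23 ± 1.18 and 20.4 ± 4.52 CPM), Dpep1 (51.9 ± 1.62 and 170 ± 53.8 CPM) and Dclk1 (14.5 ± 2.28 and 30.9 ± 0.856 CPM) were likewise lower in Control and on day 48 (1.75, 49.3 and 19.3 CPM) than on day 27 (10.7, 140 and 33.6 CPM) and day 100. Desmin differed, at 1602 ± 76.7 CPM in Control and 982 ± 129 CPM in saline D100, next to its level on day 48.

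**Figure D5:**
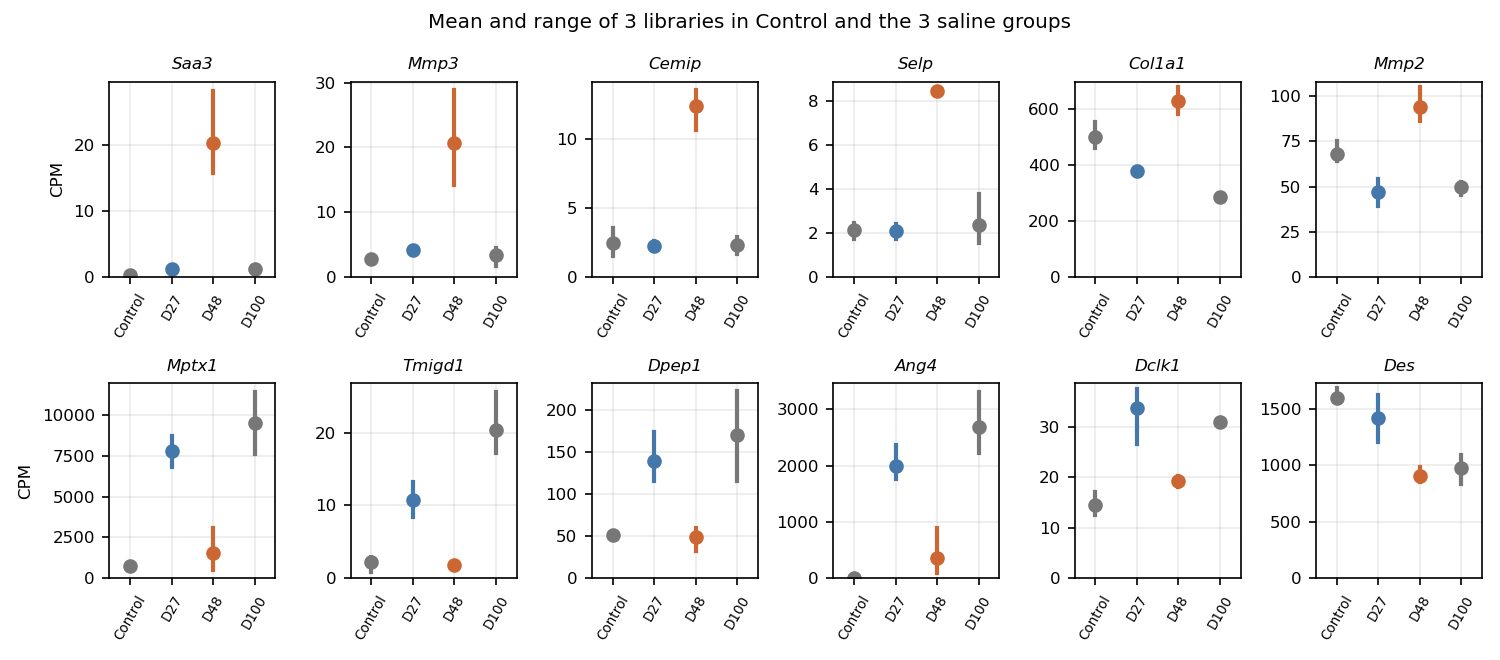
Mean CPM (points) and range of 3 libraries (bars) of 12 genes in Control and the 3 saline groups, each on its own axis from 0. Saa3, Mmp3, Cemip and Selp are high on day 48 only, and Mptx1, Tmigd1, Dpep1, Ang4 and Dclk1 are lower in Control and on day 48 than on days 27 and 100.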

How the data were processed

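The series holds 15 RNA-seq libraries of mouse colon, 3 in each of 5 groups. Per the labels' protocols, a column kit gave the RNA and a SMARTER kit the libraries. The deposited values are raw counts per gene, made by the authors, and GRCm38 and mm10 are named per the submitters' processing notes. No source used here gives the aligner, counter or strand setting, so near-identical genes (Gsdmc, Ang and Clca4 families, trypsins, mitochondrial genes) and the antisense Kirrel3os are uncertain. None of the columns was without a sample.

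Counts were tested with edgeR 4.0.16 (R 4.3.3) by quasi-likelihood, with TMM scaling and filterByExpr, over all 15 libraries with 5 group means. The contrast was saline D48 minus saline D27, and a call needed a Benjamini-Hochberg adjusted p under 0.05. SE is the log2 change over the square root of F. CPM used TMM-scaled library sizes. Data were simulated for 18038 genes from the means and spreads of all 15 libraries, with changes placed only in genes above 2 CPM. Of 100 genes changed 2-fold 68% were called, and of 100 changed 4-fold 94%, with 6 false calls. Each gene was drawn on its own, so no simulated library carried a shared shift such as the pancreas transcripts. These rates need not hold for the real libraries. An exact permutation test of these 2 groups could reach 0.1 at best.

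The genes named by rule are the 15 largest called rises and the 15 largest falls that averaged 2 CPM or more over the 6 libraries, had groups that did not overlap and a proper gene symbol, and were not on the pancreas list. For rises, D48 replicate 1 also had to reach 25% of the mean of the other D48 libraries. Up to 5 members of each list, those with the smallest p, and Apex1 are named too. Other genes were added for their roles after their values were seen. The comparison, the 44 lists and the rule were chosen with earlier results of these data known. Coordinates (GRCm38) are from GENCODE M21, matched by symbol for 49209 of 56859 genes. Promoters are from RefSeq. Alternatives used DESeq2 1.42.0 and limma 3.58.1, other scaling, no filter, fewer libraries and a replicate block. Same-numbered D27 and D48 libraries had correlations of -0.03, 0.013 and -0.114 of their deviations, so the numbers were not taken to pair them.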

Additional observations from a re-analysis of the deposited data

How the results depend on the processing

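Against 154 genes higher and 90 lower, the counts were 561 and 350 with no filter on low counts, 402 and 311 with DESeq2's test, 38 and 11 with only the 2 groups fitted, 262 and 155 with voom quality weights, and 12 and 12 without both pancreas-bearing libraries. With each library left out in turn they ranged from 19 to 156 and from 5 to 91. A replicate block, although the numbers do not pair the libraries, gave 111 and 71. With the block, 7 of the 15 rises and 15 falls named by rule lost their calls. DESeq2 size factors gave 160 and 90, and leaving out the pancreas genes 133 and 100. The estimate of Apex1, 0.02, changed sign to -0.03 with the replicate block, -0.14 with voom weights, -0.15 without D27 replicate 3, -0.25 without D48 replicate 2 and -0.47 without both pancreas-bearing libraries. With single libraries left out it ranged from -0.25 to 0.21, and it was not called under any setting. The cause of these shifts was not tested. The median of all genes stayed between -0.03 and 0.01 under all settings. With 3 libraries a group, a gene not called is not shown to be unchanged.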

Other observations

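Further groups were put together after the values were seen, and are given as descriptions. Of 15 basement membrane genes, 7 rose (0.854% of all genes did) and all 15 had estimates above 0 (median 0.47). Wholly above day 27 lay 12 of them, against 10.3% of all genes. Col18a1, the precursor of endostatin, stood at 92.8, 84.8 and 79.8 CPM on day 27 and at 175, 193 and 168 CPM on day 48. It had the smallest adjusted p of the comparison (log2 1.06 ± 0.0965, edgeR adjusted p = 0.00018), and was called with each library left out. The type IV collagen gene Col4a1 stood at 405, 346 and 404 CPM and then at 594, 588 and 575 CPM (edgeR adjusted p = 0.0103, and 0.0646 without D27 replicate 2). The laminin gene Lama1 stood at 8.25, 7.09 and 6.76 CPM and then at 21.5, 20.7 and 17.9 CPM (edgeR adjusted p = 0.0141, and 0.0752 and 0.0887 without D27 replicates 2 and 3). Of 16 complement genes 4 rose (0.854% of all genes did), and 15 had estimates above 0 (median 0.6). Among the 4 was C4b, at 208, 179 and 172 CPM and then at 360, 379 and 356 CPM (log2 0.97 ± 0.12, edgeR adjusted p = 0.00199, called with each library left out). C3 stood at 452, 422 and 384 CPM and then at 602, 644 and 895 CPM without passing (adjusted p = 0.0594).

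Of 6 insulin-like growth factor binding protein genes 3 rose (0.854% of all genes did). Igfbp5 stood at 191, 155 and 169 CPM on day 27 and at 329, 480 and 429 CPM on day 48 (edgeR adjusted p = 0.00322), and Igfbp4 at 151, 141 and 121 CPM and then at 221, 317 and 257 CPM (0.00592). Both were called with each library left out. With D48 replicate 1 alone, the log2 estimates of Igfbp5 and Igfbp4 were 0.94 and 0.68, against 1.26 and 0.94 in the full fit. Both monoamine oxidase genes fell (0.499% of all genes did). Maoa stood at 542, 457 and 444 CPM and then at 278, 312 and 250 CPM (log2 -0.78 ± 0.109, edgeR adjusted p = 0.00397, called with each library left out). Maob stood at 28.4, 31 and 31.1 CPM and then at 19.6, 14.8 and 13.7 CPM (edgeR adjusted p = 0.0171, up to 0.0893 with a library left out). The gasdermin C gene Gsdmc3 fell from 534, 433 and 380 CPM to 152, 250 and 70.2 CPM (edgeR adjusted p = 0.0337, up to 0.0996 with a library left out). Its neighbours Gsdmc2 and Gsdmc4 overlapped between the groups and did not pass (adjusted p = 0.181 and 0.119), but were lower without D48 replicate 2 (edgeR adjusted p = 0.00188 and 0.00126).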
